A study of Homo sapiens with 2 samples.

Results

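The S100 calcium binding proteins were examined in Huh7 cells after knockdown of BRF2. The 10 genes S100A1, S100A2, S100A4, S100A6, S100A10, S100A11, S100A13, S100A14, S100A16 and S100P were taken by gene name from the deposited table of 61541 genes. The family was chosen by its lower values in this same comparison of reads, so its changes are given as a description and without a test. Huh7 is a cell line from a human hepatocellular carcinoma. The Huh7-NC library came from Huh7 cells given a control siRNA (labelled si-NC) and the Huh7-si library from Huh7 cells given an siRNA against BRF2 (labelled si-BRF2). BRF2 belongs to the factor that starts transcription by RNA polymerase III at genes such as U6. By the study's methods the siRNA was transfected, no other treatment is named, and the siRNA used and the time of harvest are not given in the sources used here. With 1 library in each condition, no difference has a replicate check.

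S100 proteins are small, mostly dimeric proteins with a pair of EF-hands, the helix-loop-helix motif that holds calcium. Calcium binding opens a surface that docks target proteins such as annexins, non-muscle myosin and p53, and some members are released and act on the receptor RAGE. Members are expressed in a cell-type-specific manner, and several are studied as markers of carcinoma and of cell motility.

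The deposited table gives an estimated count of reads and a TPM value (level per length, scaled to the library) for each gene. Total reads were 22852648 for the control and 22089016 for the knockdown library. CPM is reads scaled to these totals, and log2 fold changes are ratios of CPM, Huh7-si over Huh7-NC. Intervals are 95% exact Clopper-Pearson intervals, which cover counting error only. Reads of BRF2 itself numbered 1281 in the control and 364 after knockdown, which is -1.77 on the log2 scale (95% interval -1.94 to -1.60). The hepatocyte markers ALB, AFP, APOA1 and the other 6 of the list of 9 all had reads, with summed TPM of 15184 and 16417. Of these 9, 6 lay below 0 and 3 above on the log2 scale, where 35.2% of all genes with at least 10 reads lay below 0. The values ran from -0.83 (APOA1) to 1.04 (APOB). By the deposited length column APOA1 has 932 bases and APOB 14121. The coding genes nearest to them in length had medians of -0.32 and 0.76. APOA1 lay 0.51 below its median and APOB 0.28 above. The 5 biliary markers summed to 260 and 284 TPM, with KRT7 at 0 and 3 reads. Among them CFTR had 8 and 20 reads, a log2 fold change of 1.37, but -0.13 by TPM. The 5 fibroblast markers summed to 14.8 and 32.8 TPM, with THY1 at 0 in both libraries, and the 4 endothelial markers to 0.96 and 1.6 TPM. COL1A1 and COL1A2 of the fibroblast list were at least 2-fold higher in Huh7-si, as were 15.2% of all genes with at least 10 reads. The 5 leukocyte markers summed to 452 and 449 TPM, nearly all of it LYZ, while PTPRC had 5 reads and 1 read and CD3E had none. The part of these markers in the results below was not tested, and in bulk RNA fewer cells of a type and less RNA per cell cannot be told apart.

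In GENCODE release 29 (GRCh38), 9 of the 10 genes lie in the S100 cluster of chromosome 1, which spans 151982915 to 153632039. Of these, 8 are on the minus strand, and S100A1 is on the plus strand. S100P lies alone on chromosome 4, from 6693069 to 6697170 on the plus strand. The deposited table holds no coordinates, and the submitters' processing notes name GRCh37, so these positions describe the reference only.

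The promoters of 3 members are shown because they span the range of change found below among the 8 members with at least 100 reads over both libraries. By CPM, S100P and S100A14 were about 2-fold lower in Huh7-si, and S100A6 differed by less than its counting error. Each is the 300 bases from 250 before to 50 after the annotated start site, from RefSeq (GRCh38.p14), at chr4:6693628-6693927 on the plus strand for S100P, chr1:153616276-153616575 on the minus strand for S100A14 and chr1:153535942-153536241 on the minus strand for S100A6. Capitals mark matches to 3 motifs searched on both strands, TATAAA (the TATA box), TGANTCA (the AP-1 site) and GGGCGG (a GC box).
S100P: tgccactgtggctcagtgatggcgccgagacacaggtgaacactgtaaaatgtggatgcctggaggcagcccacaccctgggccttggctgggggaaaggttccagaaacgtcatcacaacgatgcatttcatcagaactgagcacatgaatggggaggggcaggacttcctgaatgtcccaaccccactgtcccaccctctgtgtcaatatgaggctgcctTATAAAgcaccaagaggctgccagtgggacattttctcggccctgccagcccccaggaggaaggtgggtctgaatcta
S100A14: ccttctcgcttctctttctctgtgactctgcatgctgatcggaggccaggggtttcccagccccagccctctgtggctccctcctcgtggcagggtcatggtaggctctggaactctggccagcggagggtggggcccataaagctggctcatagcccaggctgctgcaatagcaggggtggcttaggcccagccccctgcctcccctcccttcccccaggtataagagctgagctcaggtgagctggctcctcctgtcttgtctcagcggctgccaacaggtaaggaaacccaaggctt
S100A6: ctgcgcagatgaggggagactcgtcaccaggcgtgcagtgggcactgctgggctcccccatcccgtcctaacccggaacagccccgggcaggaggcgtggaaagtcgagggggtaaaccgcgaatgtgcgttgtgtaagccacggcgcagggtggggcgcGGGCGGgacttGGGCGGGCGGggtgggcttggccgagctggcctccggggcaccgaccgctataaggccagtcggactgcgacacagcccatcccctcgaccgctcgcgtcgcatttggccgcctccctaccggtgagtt
The S100P promoter held TATAAA beginning 28 bases before the start site. The S100A6 promoter held 3 matches to GGGCGG, of which 2 overlap, and the S100A14 promoter held none of the 3 motifs. All 10 members had at least 1 promoter in the table, with 14 in all. TATAAA was found in 3 of these 14 promoters (S100A4, S100A13 and S100P) and in 11.5% of the 35116 promoters of the table. GGGCGG was found in 5 of the 14 (S100A6, S100A10, S100A11, S100A13 and S100A16) and in 15786 of all promoters (45%). TGANTCA was found in 1 of the 14, of S100A2, and in 7.71% of all promoters. These matches describe letters in these windows and were not set against the changes by any test.

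Levels per length differed widely within the family. In Huh7-NC, S100P was the highest member at 666 TPM, at or above 98.8% of the 17921 genes with at least 10 reads over both libraries. S100A10 (383 TPM) and S100A11 (355 TPM) followed, and their counting intervals, 370 to 397 and 340 to 370 TPM, nearly met. S100A6 (147 TPM), S100A13 (120 TPM) and S100A16 (84.5 TPM) were next. S100A4 (16.1 TPM) and S100A14 (5.03 TPM) were lower, and S100A2 (1.04 TPM) and S100A1 (0.78 TPM) rested on 6 and 5.64 reads. The S100A2 and S100A1 levels did not differ beyond counting error, with intervals of 0.38 to 2.26 and 0.30 to 1.81 TPM.

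In Huh7-si the order changed at 2 places. S100P remained first at 350 TPM, but S100A11 (294 TPM, interval 280 to 309) now stood above S100A10 (269 TPM, interval 257 to 281), with intervals that overlapped slightly. S100A1 (0.93 TPM) and S100A2 (0.61 TPM) also changed places within overlapping intervals. The 10 members summed to 1778 TPM in Huh7-NC and 1225 TPM in Huh7-si. S100P made up 37.4% of the first sum and 28.6% of the second, and S100A6 8.26% and 12.6%.

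**Figure D1:**
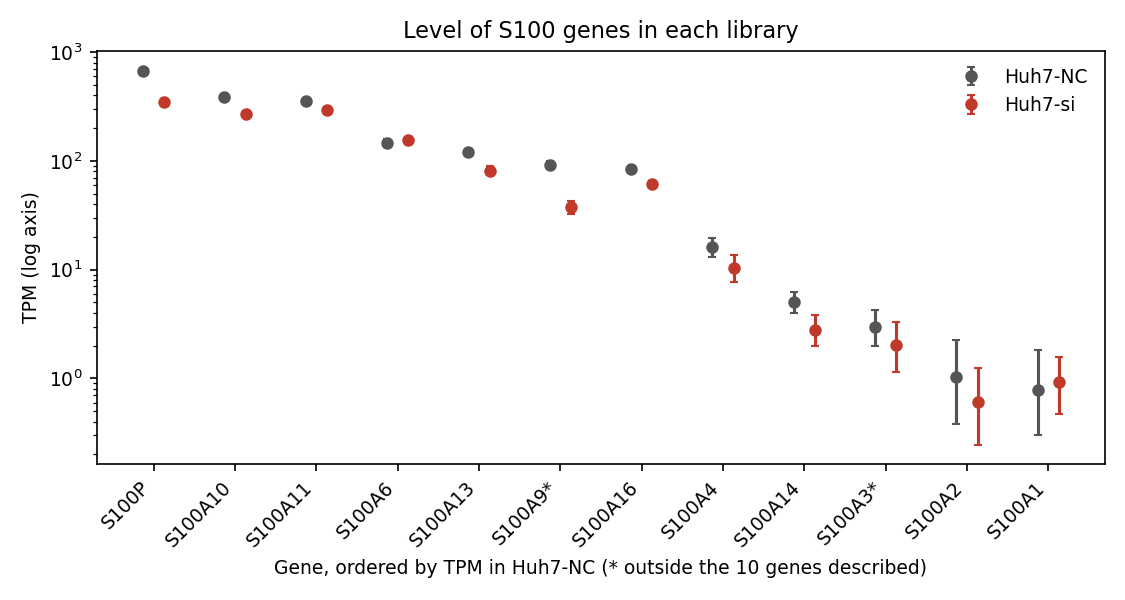
TPM of each S100 gene with at least 10 reads (log axis) in Huh7-NC (grey) and Huh7-si (red), 1 library each, with 95% counting intervals scaled from the reads. S100P stands highest in both libraries, S100A6 is level between them, and S100A2 and S100A1 lie near 1 TPM with wide intervals.

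Of the 10 members, 8 had a log2 fold change below 0, as did 35.2% of the 17921 genes with at least 10 reads. Among coding genes in the length range of the members the share was 72.7%. These 8 were the members with at least 100 reads over both libraries, and the median over the 10 members was -0.59. Over the 17921 genes with at least 10 reads the median was 0.21. Of the members, 2 (S100P and S100A14) were at least 2-fold lower in Huh7-si, as were 1.81% of these genes. Another, S100A1, was at least 2-fold higher, as were 15.2%. Because the members were noted for this difference, no meaning is read from their counts. TMM scaling shifts every log2 fold change by -0.22 and gives 544 lower and 1980 higher genes in place of 325 and 2723; with it the median of the members was -0.81 and that of all genes -0.01.

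S100P, a protein of epithelia and many carcinomas that binds ezrin and RAGE, had 2915 and 1366 reads (the control first, here and below). Its CPM was 51.5% lower after knockdown, or -1.04 on the log2 scale (95% interval -1.14 to -0.95). The interval includes values short of a 2-fold difference, and by the TPM columns the log2 fold change was -0.93. S100A14, found mainly in epithelia, had 81 and 38 reads. The log2 fold change was also -1.04, but with fewer reads the interval was wider, from -1.64 to -0.47.

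S100A4, which binds non-muscle myosin heavy chain and is known for its link to metastasis, had 91 and 51 reads. Its log2 fold change was -0.79 (-1.31 to -0.28), and -1.01 with TMM scaling, which takes it past 2-fold. Part of the S100A4 locus is shared on the same strand with S100A3, so some of its reads may be assigned between the 2 genes. S100A10, the partner of annexin A2 that has lost calcium binding, went from 3181 to 1944 reads. This was the most reads of any member, and the log2 fold change of -0.66 had an interval of -0.74 to -0.58. S100A16, a widely expressed member, had 1504 and 930 reads, or -0.64 (-0.76 to -0.53) on the log2 scale. All 3 were lower in Huh7-si beyond counting error.

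S100A13, which takes part in the release of fibroblast growth factor, had an estimated 671 and 449 reads, a log2 fold change of -0.53 (-0.71 to -0.36). S100A11, a partner of annexin A1, had 2190 and 1598 reads, with -0.41 (-0.50 to -0.31) on the log2 scale. S100A6 (calcyclin) had 672 and 645 reads. Its log2 fold change was -0.01 (-0.17 to 0.15), while TMM scaling gave -0.23 and the TPM columns gave 0.07. Its sign therefore differs between the reads and the TPM columns. Among the 8 members with at least 100 reads, only for S100A6 did the interval hold 0. This holds for scaling to total reads. The TMM shift of -0.22 exceeds the upper end of that interval in size, so with TMM scaling it would lie wholly below 0.

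S100A2, an epithelial member that binds p53, and S100A1, a regulator of calcium handling in muscle, had the fewest reads. S100A2 had 6 and 7 reads, a log2 fold change of 0.27 with an interval of -1.53 to 2.12, and by the TPM columns it was -0.77. S100A1 had an estimated 5.64 and 12.4 reads, a log2 fold change of 1.18 with an interval of -0.48 to 2.75, with 0.96 under TMM scaling, short of 2-fold, and 0.25 by the TPM columns. A difference in either gene was not detectable at this depth. S100A1 lies opposite S100A13 in part, and their reads are the only fractional ones among the members. An unnamed gene, ENSG00000271853, overlaps both and shares the strand of S100A13, with 35.1 and 56.0 reads. Whether the counting used strand is not given in the sources used here, so the reads of S100A1 and S100A13 are uncertain.

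**Figure D2:**
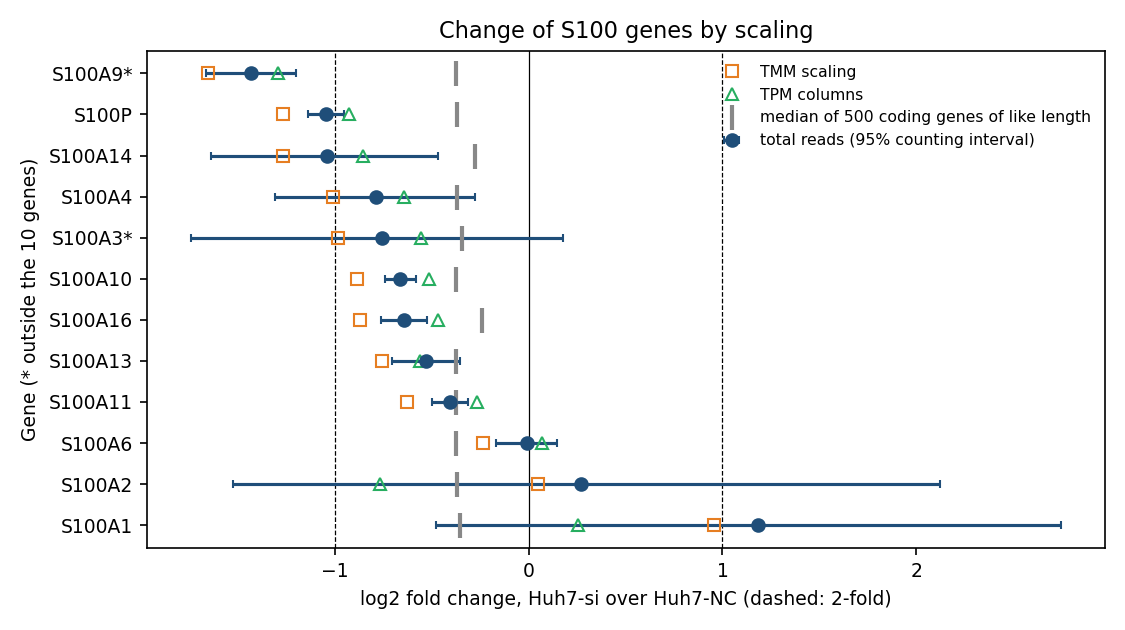
Log2 fold change (Huh7-si over Huh7-NC) of each S100 gene with its 95% counting interval (blue), with TMM scaling (orange squares), by the TPM columns (green triangles) and the median of the 500 coding genes nearest in length (grey bars). Blue points run from -1.43 for S100A9 to 1.18 for S100A1, and the intervals of S100A6, S100A2, S100A1 and S100A3 cross 0.

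All members are short, from 453 bases (S100A2) to 1172 bases (S100A16) by the deposited length column, and short genes as a whole were lower in Huh7-si. Here and below, length, short and long refer to that column and not to the span of a gene on the chromosome. For S100P the column gives 471 bases, less than its span on chromosome 4. Among the 1390 coding genes in that range, S100 genes left out, the median log2 fold change was -0.32, and 72.7% of them lay below 0, against 80% of the members and 35.2% of all 17921 genes. Of these short genes 2.66% were at least 2-fold lower and 5.54% at least 2-fold higher. Each member was therefore also set beside the 500 coding genes nearest to it in length. Of the members, 7 lay below the median of those genes and 3 above, and the median distance over the 10 members was -0.22.

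S100P lay 0.67 below the median of genes of like length (-0.37), and 16 of the 500 had a lower value. S100A14 lay 0.76 below, where 7 of 500 were lower, although its neighbours in length were less shifted (median -0.28). The distances of S100A4, S100A16 and S100A10 were -0.41, -0.40 and -0.29, with 35, 48 and 56 of the 500 lower. For S100P, S100A14, S100A16 and S100A10 the whole counting interval lay below the median of genes of like length, and for S100A4 it did not. S100A13 lay 0.15 below, with 139 of the 500 lower, and S100A11 lay 0.03 below, with 227 of the 500 lower. S100A6 lay 0.36 above that median, with 377 of the 500 lower. No member was 2-fold lower relative to genes of like length.

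**Figure D3:**
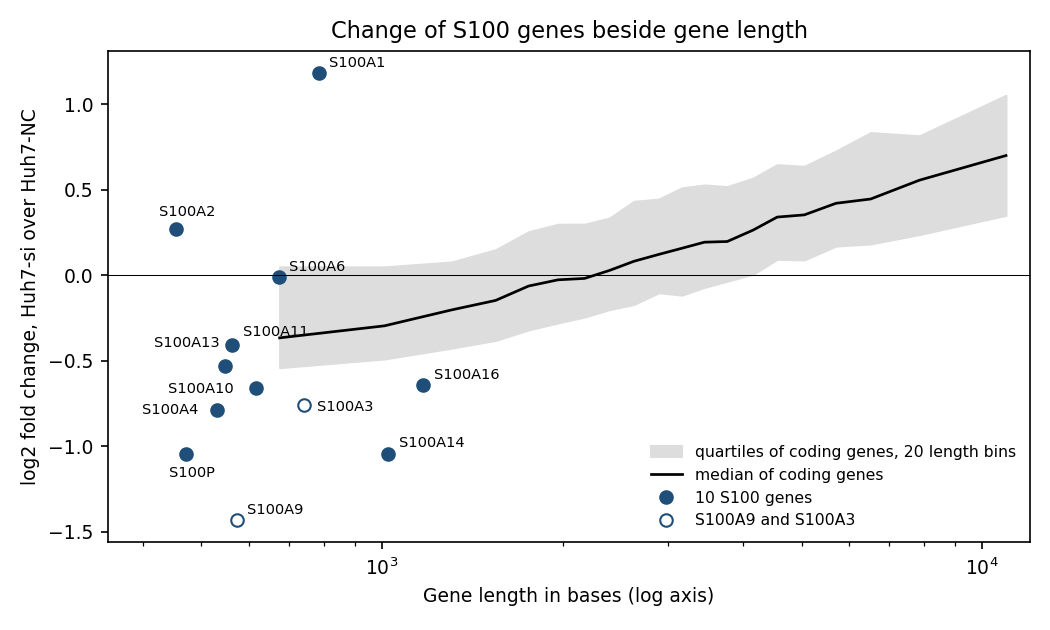
Log2 fold change (Huh7-si over Huh7-NC) against length by the deposited length column (log axis) for the 10 S100 genes (filled) and for S100A9 and S100A3 (open), beside the median (line) and quartiles (grey) of coding genes with at least 10 reads in 20 length bins. The median climbs from -0.37 in the shortest bin to 0.70 in the longest, and S100P, S100A14 and S100A9 lie below -1 while S100A6 lies near 0.

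Among the members with at least 100 reads, the TPM columns gave values nearer to 0 than the reads for S100P, S100A14, S100A4, S100A10, S100A16 and S100A11. They gave values farther from 0 for S100A13 (-0.56 against -0.53) and S100A6 (0.07 against -0.01). The median of all genes was also higher by the TPM columns, at 0.39 against 0.21 by reads. The members' median was -0.54 by the TPM columns and -0.59 by reads. Their median distance to genes of like length was -0.35 by the TPM columns and -0.22 by reads. The values nearer to 0 therefore do not show a smaller difference from other genes. The number of reads behind 1 TPM was lower in Huh7-si for most genes, with a median log2 ratio of -0.23. S100A16 (-0.23) and S100A14 (-0.24) matched that median, whereas S100A2 (0.99), S100A1 (0.88) and, by less, S100A13 (-0.02) departed from it. The length by which the authors' TPM divides the reads of S100A2, S100A1 and S100A13 therefore differed between the libraries. For S100A2 and S100A1 the choice of column moves the value more than for any other member.

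Of the other 11 genes of the family, S100A3 and S100A9 had at least 10 reads. S100A9, best known as a subunit of the calprotectin of neutrophils and monocytes, had 586 and 210 reads, or 92.0 and 37.5 TPM. Its log2 fold change of -1.43 (-1.67 to -1.20) was lower than that of any of the 10 genes above, and 7 of the 500 coding genes of like length were lower still. S100A8, the partner of S100A9 in calprotectin, was without reads; a count of 0 allows up to 3 reads, or 0.131 and 0.136 CPM. S100A3 had 28 and 16 reads, a log2 fold change of -0.76 with an interval of -1.74 to 0.18. S100B had 2 and 0 reads, both under that limit. The genes with no reads were S100A5, S100A7, S100A7A, S100A7L2, S100A8, S100A12, S100G and S100Z. With S100A3 and S100A9 added, 3 of 12 S100 genes were at least 2-fold lower. Of all genes with at least 10 reads 1.81% were, and of coding genes in the length range of the members 2.66%. As above, no meaning is read from the count.

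The annexins, membrane-binding proteins that several S100 dimers bridge, mostly lay below 0 by reads. Of the 10 annexin genes with at least 10 reads, 8 lay below 0, as did 35.2% of all genes with that many reads. Their median length was 2069 bases, against 2744 for all genes, and coding genes of 1862 to 2074 bases had a median of -0.03. The share below 0 among genes of that length was not computed. In the annexins 1 gene was at least 2-fold lower and 1 at least 2-fold higher, against 1.81% and 15.2% of all genes. The annexin median was -0.34 by reads and -0.15 by the TPM columns, where all genes had 0.21 and 0.39. ANXA2, which forms a tetramer with S100A10, had 19546 and 14884 reads, or -0.34 (-0.38 to -0.31) on the log2 scale, where S100A10 had -0.66. ANXA11, a partner of S100A6, stood at -0.43 and ANXA6 at -0.47. ANXA13 was the lowest, with 96 and 44 reads, or -1.08 (-1.63 to -0.55), and ANXA9 had -0.54. ANXA1, the partner of S100A11, moved the other way. It had 261 and 518 reads, a log2 fold change of 1.04 (0.82 to 1.26), or 0.81 with TMM scaling, which is under 2-fold. ANXA3 had 0.47. ANXA7 had -0.11, or 0.01 by the TPM columns.

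Other binding partners were divided. Of 19 genes, 10 lay below 0 and 9 above, where 35.2% of all genes with at least 10 reads lay below 0. Their median was -0.04 by reads and 0.07 by the TPM columns. At least 2-fold lower were 1.81% of all genes and 1 gene of this list. That gene was CACYBP, the calcyclin binding protein named for S100A6, with an estimated 2620 and 1149 reads, or -1.14 (-1.24 to -1.04). By the TPM columns its value was -0.75, and a gene with reads, MRPS14, overlaps it on the opposite strand. PLAU, the urokinase that activates plasminogen, had 153 and 80 reads (-0.89), and STIP1, a co-chaperone, -0.45. The highest values were those of IQGAP1 (1431 and 2758 reads, 1.99-fold higher), AHNAK (1738 and 3209 reads, a log2 fold change of 0.93), which binds the S100A10 and annexin A2 complex, and MYH9 (0.63), the myosin bound by S100A4. These 3 genes are long by the length column, and the genes of like length had medians of 0.52, 0.76 and 0.56. EZR, which S100P binds, had 6012 and 5899 reads, or 0.02 (-0.03 to 0.07). S100PBP, a nuclear binder of S100P, had 417 and 481 reads, or 0.26 on the log2 scale and 0.03 with TMM scaling. YARS1, with 3889 and 3069 reads, overlaps S100PBP on the opposite strand, so the reads of S100PBP are uncertain.

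Of 6 receptor genes, 5 had at least 10 reads, and AGER and CD36 were at least 2-fold higher, as were 15.2% of all genes with at least 10 reads; with TMM scaling 1 of the 5 was. AGER encodes RAGE, the receptor of several extracellular S100 proteins, and had an estimated 222 and 557 reads, 2.98 and 10.1 TPM. Its log2 fold change was 1.37 (1.15 to 1.61), or 1.15 with TMM scaling. CD36 had 19 and 42 reads (1.19, interval 0.38 to 2.06), or 0.97 with TMM scaling. SDC1 (-0.28) and BSG (-0.16) were lower by reads and at 0.05 and 0.02 by the TPM columns, and EMB had 0.53. TLR4 had no reads.

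**Figure D4:**
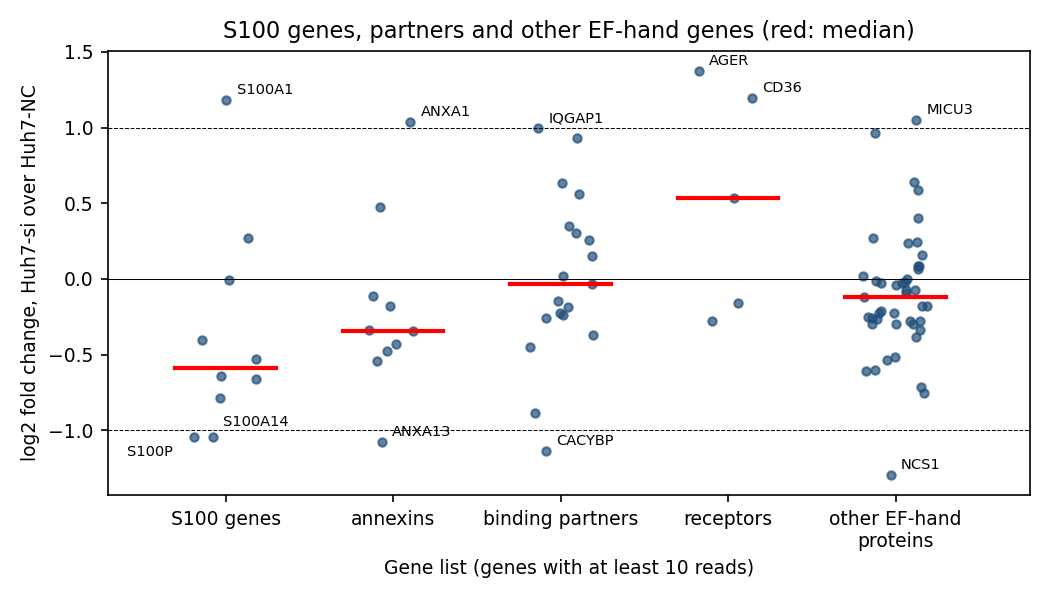
Log2 fold change (Huh7-si over Huh7-NC) of the S100 genes, annexins, other binding partners, receptors and other EF-hand genes with at least 10 reads; each point is a gene, red lines are medians and dashed lines mark 2-fold. The medians are -0.59, -0.34, -0.04, 0.53 and -0.12 in that order, and the labelled genes lie at or past about 2-fold.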

How the data were processed

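RNA-seq of Huh7-NC and Huh7-si cells was analyzed, with 1 library per condition. The authors deposited estimated counts per gene, partly fractional and not scaled to library size, and TPM values for both libraries, with a length in bases for each gene. The submitters' processing notes list Bowtie2 2.0.6, TopHat2 2.0.12 and GRCh37. The counting tool, annotation and strandedness are not given in the sources used here. Deposited fold changes, p-values and calls of the authors were not used.

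CPM were computed from the total reads on genes. Counts were rounded for intervals and for edgeR 4.0.16 (TMM) and DESeq2 1.42.0 (median of ratios), which gave scalings only (R 4.3.3, Python 3.11.15). Lists and thresholds (10 reads over both libraries, 2-fold) were chosen with earlier results of these data known. All 10 members are reported, with the other S100 genes, BRF2 and known partners of members. From each list of related genes, at most the 3 highest and 3 lowest with at least 100 reads were named. Markers of cell types, genes within the S100 span on chromosome 1 and genes that overlap a named gene were named outside this rule. Some of them had fewer reads or none. CD36 and TLR4 of the receptors also fell outside it, and CD36 was named after its values were seen. GENCODE release 29 held 94.8% of the identifiers. The intervals and the comparison with genes of like length were tested on simulated data. The simulated counts varied by counting error only, and only genes with enough expected reads were changed. The simulation therefore does not bear on spread between libraries or on genes with few reads, such as S100A1 and S100A2. Protein sequences were not used here. Leaving out a library was not possible.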

Additional observations from a re-analysis of the deposited data

How the results depend on the processing

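The median log2 fold change of the 10 S100 genes was -0.59 with total reads and moved to -0.81 (TMM), -0.79 (median of ratios) and -0.77 (upper quartile) under scalings that shift all genes alike. The count of members at least 2-fold lower was 2. It was 1 with a pseudocount of 1 CPM, 0 by the TPM columns, 5 at a fold of at least 1.5, and 0 relative to genes of like length, an alternative chosen after seeing the data. The other alternatives gave 2 or 3. Across all genes with at least 10 reads, 325 were at least 2-fold lower, and 544 with TMM. The median distance to genes of like length ranged from -0.45 (all gene types) to -0.20 (200 genes, or genes of like level). By the TPM columns S100A2 (-0.77) and S100A6 (0.07) changed sign, and no other member did under any of the 7 alternatives run on single genes. No paired analysis was possible because each condition has 1 library. Depth limits S100A1 and S100A2, with under 20 reads each.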

Other observations

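Other EF-hand genes were listed beside the S100 genes. Of all genes with at least 10 reads, 35.2% lay below 0, 1.81% were at least 2-fold lower and 15.2% at least 2-fold higher. Of the 45 EF-hand genes with that many reads, 31 lay below 0, 1 was at least 2-fold lower and 1 at least 2-fold higher. Their median length was 2406 bases, against 2744 for all genes, and coding genes of 2283 to 2512 bases had a median of 0.03. The share below 0 among genes of that length was not computed. The median log2 fold change of these EF-hand genes was -0.12 by reads and 0.04 by the TPM columns. The lowest was NCS1, a neuronal calcium sensor, with 1322 and 520 reads in Huh7-NC and Huh7-si and a log2 fold change of -1.30 (95% counting interval -1.45 to -1.15). Its length is 5164 bases by the deposited length column, and none of the 500 coding genes of like length (median 0.36) had a lower value. PEF1 (1642 and 941 reads, -0.75) and EFHD1 (245 and 144 reads, -0.72) followed. MICU3 (38 and 76 reads, 1.05, or 0.82 with TMM scaling), a regulator of mitochondrial calcium uptake, CAPN2 (250 and 471 reads, 0.96), a calpain, and RCN3 (84.5 and 128 reads, 0.64) were the highest.

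Of 71 other genes that lie wholly within the span of the S100 genes on chromosome 1, some of them overlapping an S100 gene, 60 had no reads and 3 had at least 10: FLG (11.8 and 23.7 reads), FLG-AS1 (8.25 and 5.32 reads) and the unnamed ENSG00000285867 (4 and 8.02 reads). ENSG00000271853, which overlaps S100A13 and S100A1 and reaches past the end of that span, is not among them and had 35.1 and 56.0 reads. FLG, which encodes filaggrin, was also the only one of the 7 fused S100 genes with that many reads. None of the 16 S100 pseudogenes in the table had a read.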
